A study of Mus musculus with 11 samples.

Results

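The genes examined here encode the glycolytic pathway, from glucose uptake to lactate export, together with genes known to respond to low oxygen. They were chosen by name: 36 mouse gene symbols, of which 32 were the only gene of at least 1 probe set on the array and were measured. Gpi1, Pgam1, Eno1 and P4ha1 were not the only gene of any probe set and have no value here, and Ero1l was read under its current symbol, Ero1a. The 32 genes stood among 17097 genes measured in the series, each read from its brightest probe set over the 9 lacrimal gland arrays. No filter on low values was applied, so all 32 entered every test.

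All animals were male, of the NOD strain, in which autoimmune inflammation of the lacrimal gland arises spontaneously, and 16 weeks old. Gland cell suspensions were stained and sorted into 3 subsets of CD4+ TCRβ+ cells, with 3 arrays each. LG_naive cells lacked PD1 and ICOS. LG_eTconv (effector conventional) and LG_eTreg (effector regulatory) cells were PD1high ICOShigh, and the labels state the same CD73low CD200low gate for both. Total CD4+ cells (Spl_CD4) and total CD8+ cells (Spl_CD8) were sorted from spleen of those animals, 1 array for each. The mice carried no stated transgene or treatment, and no group came from another strain. The labels do not say whether arrays of a group came from separate mice or pools, so the p-values measure the spread between these arrays, which may in part be technical.

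Glycolysis splits glucose into pyruvate in a chain of enzymatic steps, and T cells are known to raise it after activation, when much of the pyruvate leaves as lactate. Hypoxia-inducible factor 1 (HIF-1) induces many glycolytic genes. Its alpha subunit is marked for destruction by oxygen-dependent prolyl hydroxylases, escapes when oxygen is short, and then binds DNA at the core ACGTG with its partner Arnt. Activated T cells are also known to make more of the alpha subunit while oxygen is present, through antigen receptor and mTOR signalling.

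Values are the authors' log2 array signals, and a difference of 1 is a 2-fold change. A gene was called where limma's moderated test, fitted on all 17097 genes over the 9 gland arrays, gave a Benjamini-Hochberg adjusted p under 0.05. A probe set counted as above background on an array when its signal exceeded the highest of 23 nonspecific control probe sets there. That limit lay between 0.945 and 1.698 over the 11 arrays, 28 of the 32 genes exceeded it on all 11, and the exceptions were Aldoc, Eno2, Slc16a3 and Vegfa. The arrays had similar medians over genes (2.257 to 2.388), and between 55.5% and 65.6% of genes were above the limit. LG_naive 1 and LG_eTreg 3 had the highest 18S control signals (6.632 and 6.693, against a lowest of 4.343). The difference between 3′ and 5′ probe sets of the actin control was widest on LG_eTconv 1, at 3.349. The sorted gland cells carried Cd4 at 8.35 to 9.02, Foxp3, which defines regulatory cells, stood at 8.13 to 8.21 in LG_eTreg, and Cd8a stood at 9.35 in Spl_CD8. Nt5e, which encodes CD73, read 3.93 to 4.71 in LG_naive, 8.68 to 8.87 in LG_eTconv and 7.63 to 8.02 in LG_eTreg. Cd200 read 5.46 to 5.88, 9.24 to 9.49 and 8.12 to 8.32. RNA of both was thus higher in the effector subsets than in LG_naive, although their stated gate is CD73low CD200low. Pdcd1 (PD1) and Icos were higher in both subsets too, as the gate states. The gate is set on stained protein, which arrays do not measure.

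Most of the genes that changed were higher in the effector subsets than in LG_naive. The increase was spread over the lower part of glycolysis, 1 lactate exporter (Slc16a3) and the oxygen-sensing arm. In LG_eTconv, 11 of the 32 genes were higher and 2 lower than in LG_naive, 40.6% of the members against 13.5% of all genes tested (6.45% called higher, 7.02% called lower). Their median difference was 0.43, against -0.03 over all genes. In LG_eTreg, 10 were higher and 2 lower, 37.5% of the members against 11.7% of all genes (6.2% higher, 5.47% lower), with a median of 0.30 against -0.02. Both comparisons share the 3 LG_naive arrays, so they are not independent.

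A set of 8 genes was called higher in both effector subsets. These were Tpi1, Gapdh, Pgk1 and Eno2 of the pathway itself, the lactate exporter Slc16a3, Hif1a with its hydroxylase Egln3, and Bnip3. The share of all genes called higher in both subsets was not counted, so this number has no such share beside it. Hk2, Pgm1 and Aldoa were called higher in LG_eTconv alone, and Aldoc and Ddit4 in LG_eTreg alone. Vegfa was lower in both, Slc2a3 was lower in LG_eTconv, and Pdk1 was lower in LG_eTreg. The other 16 genes were called in no comparison. A call in one subset and not in the other does not show that the subsets differ, and the direct tests between them are given further on. RNA was pooled from many cells on each array, so a smaller fraction of cells expressing a gene and less of its RNA per cell cannot be told apart.

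**Figure D1:**
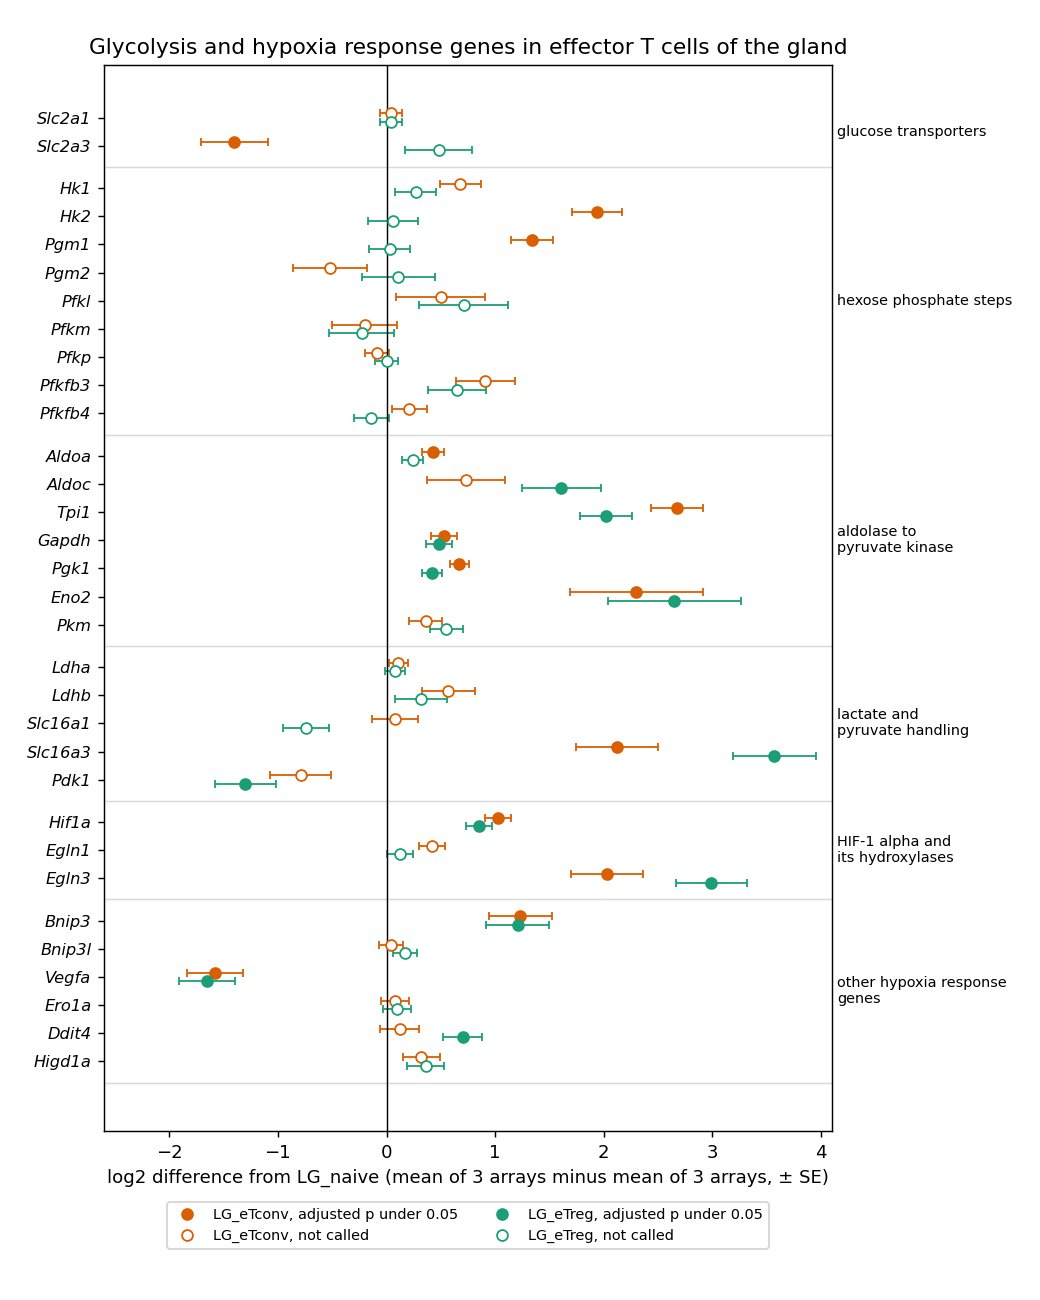
Log2 difference of each of the 32 genes from LG_naive, in LG_eTconv (orange) and LG_eTreg (green), grouped by role; points are differences of 3-array means, bars are SE, and filled points passed an adjusted p of 0.05. All 7 genes from aldolase to pyruvate kinase lie to the right of 0 in both subsets, whereas Slc2a3, Pdk1 and Vegfa hold the filled points to the left.

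Promoters are printed for 4 of the 8 genes higher in both subsets, those with the largest mean of the 2 differences from LG_naive. Of the 8 genes, 6 had the HIF core motif in the window searched below. Eno2 and Tpi1, both printed, were those without it. Each line gives the 250 bases before the RefSeq transcription start of the GRCm38.p6 mouse assembly, 5′ to 3′ on the gene's strand, with ACGTG in capitals. The assembly is not of the NOD strain. Slc16a3 lies on the plus strand at chr11:120948817-120949066, with matches 27 and 14 bases before the start. Egln3 lies on the minus strand at chr12:54203875-54204124, with 1 match 229 bases before the start. Eno2 and Tpi1 lie on the minus strand at chr6:124769674-124769923 and chr6:124814159-124814408, with 0 matches each.
Slc16a3: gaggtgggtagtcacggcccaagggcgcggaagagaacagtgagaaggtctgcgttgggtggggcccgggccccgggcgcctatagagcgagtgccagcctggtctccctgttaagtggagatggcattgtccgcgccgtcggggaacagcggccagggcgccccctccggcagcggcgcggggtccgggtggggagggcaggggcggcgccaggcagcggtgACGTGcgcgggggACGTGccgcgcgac
Egln3: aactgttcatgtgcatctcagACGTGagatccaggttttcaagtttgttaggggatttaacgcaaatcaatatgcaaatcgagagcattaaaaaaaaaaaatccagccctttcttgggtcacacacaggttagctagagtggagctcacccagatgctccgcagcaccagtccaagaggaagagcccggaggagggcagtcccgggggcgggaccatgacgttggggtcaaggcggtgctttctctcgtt
Eno2: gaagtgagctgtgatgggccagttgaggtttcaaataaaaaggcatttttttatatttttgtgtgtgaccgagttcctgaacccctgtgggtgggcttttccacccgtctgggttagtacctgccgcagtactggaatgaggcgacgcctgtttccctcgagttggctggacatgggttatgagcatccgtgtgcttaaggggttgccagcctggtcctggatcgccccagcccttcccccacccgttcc
Tpi1: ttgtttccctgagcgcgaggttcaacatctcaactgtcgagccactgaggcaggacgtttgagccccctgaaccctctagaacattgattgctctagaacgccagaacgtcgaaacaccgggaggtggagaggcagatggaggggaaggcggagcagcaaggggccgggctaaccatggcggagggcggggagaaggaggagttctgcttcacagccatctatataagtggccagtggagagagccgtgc

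The search covered ACGTG on either strand in windows from 250 bases before to 50 after each RefSeq start, and 30 of the 32 genes had such a window (Slc2a3 and Bnip3l had none in the table). At least 1 match was present in 23 of the 30, 76.7%, against 3530 of the 13514 tested genes with a window, 26.1%. The members were chosen by name as glycolysis and hypoxia response genes, so the choice of genes can itself raise this share. A gene with several windows, such as Pfkm with 4, counted where any of them matched, and the number of windows was not matched between members and tested genes. The E-box CACGTG contains ACGTG. Left out of the count, it still left 22 genes with a match (73.3%, against 18% of tested genes). ACGTG was in 6 of the 8 genes higher in both subsets (75%), in 11 of 13 genes higher in at least 1 subset (84.6%) and in 11 of 15 genes called in no comparison (73.3%). Ldha, with up to 5 matches in a window, was not called. No test compared these shares. Members had a median GC content of 62.2% in these windows, against 58.7% for tested genes, and the part of base composition in the shares was not tested. A match is a stretch of letters, not a measured binding site.

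Uptake of glucose was represented by 2 transporters, and their transcripts behaved differently. Slc2a3 (GLUT3), a high-affinity neuronal and lymphocyte transporter, stood at 7.21, 7.94 and 7.83 in LG_naive, at 6.83, 5.83 and 6.14 in LG_eTconv and at 8.48, 8.19 and 7.76 in LG_eTreg. All 3 LG_eTconv arrays were below all other gland arrays, while LG_eTreg and LG_naive overlapped. Slc2a3 was 2.63-fold lower in LG_eTconv than in LG_naive (log2 difference -1.40, SE 0.31, n = 3 and 3, limma adjusted p = 0.0176). In LG_eTreg the difference from LG_naive was 0.48 (SE 0.31, adjusted p = 0.429). A second bright probe set of Slc2a3 gave -1.57 in LG_eTconv, also called, and 0.57 in LG_eTreg. Its remaining 2 probe sets were below background on all 9 gland arrays. The LG_eTconv call ended with all values floored at 1.698, the highest background limit of any array (adjusted p = 0.052). It also ended without LG_naive 2 (0.0632), LG_naive 3 (0.0653), LG_eTconv 2 (0.0637) or LG_eTconv 3 (0.0611).

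Slc2a1 (GLUT1), the transporter best known for its induction in activated T cells, was among the brightest of the genes and the flattest. Its signal was between 8.78 and 8.98 on all 9 gland arrays, and the difference from LG_naive was 0.04 in each effector subset (95% interval -0.18 to 0.26 in both). On the spleen arrays Slc2a1 stood lower, at 8.05 in Spl_CD4 and 7.77 in Spl_CD8.

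The hexose steps, in which glucose is phosphorylated, isomerised and phosphorylated again, were covered by 9 genes. In LG_eTconv 2 of them were higher and none lower (6.45% and 7.02% of all genes). In LG_eTreg 0 of 9 were called (11.7% of all genes), with 1 at an unadjusted limma p under 0.05. Hk2, the inducible hexokinase that commits glucose to the cell, stood at 3.45, 4.17 and 3.73 in LG_naive, at 5.39, 5.85 and 5.94 in LG_eTconv and at 3.96, 4.04 and 3.52 in LG_eTreg. The 3 LG_eTconv arrays were all above the other 6 gland arrays, which overlapped. Hk2 was 3.84-fold higher in LG_eTconv than in LG_naive (log2 difference 1.94, SE 0.23, adjusted p = 0.000728), whereas in LG_eTreg the difference was 0.06 (95% interval -0.48 to 0.59). Hk1, the constitutive isoenzyme, differed by 0.68 (SE 0.19, adjusted p = 0.0524) in LG_eTconv and 0.27 in LG_eTreg and was not called in either.

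Pgm1 encodes phosphoglucomutase, which links glycogen to the glycolytic hexose phosphates, and it followed the Hk2 pattern. Its values were 4.27, 4.44 and 4.57 in LG_naive, 6.18, 5.48 and 5.65 in LG_eTconv and 4.48, 4.29 and 4.61 in LG_eTreg. Only LG_eTconv stood apart, at 2.54-fold above LG_naive (1.34, SE 0.19, adjusted p = 0.00175), and LG_eTreg differed by 0.03 (95% interval -0.40 to 0.46). Pgm2, its paralog, differed by -0.52 and 0.11 and was not called. Nor was any of the phosphofructokinase genes: Pfkl, Pfkm and Pfkp differed by 0.50, -0.20 and -0.09 in LG_eTconv and by 0.71, -0.23 and -0.00 in LG_eTreg. Dimmer probe sets of Pfkl disagreed in direction, at 0.92 and -1.14 in LG_eTconv and at 0.96 and -0.58 in LG_eTreg, none called. Pfkfb3 makes the sugar bisphosphate that activates phosphofructokinase. It differed by 0.91 (SE 0.27, adjusted p = 0.0606) in LG_eTconv and by 0.65 (adjusted p = 0.193) in LG_eTreg. A dimmer probe set of Pfkfb3 gave -0.09 and -0.31, neither called. Pfkfb4 differed by 0.21 and -0.14.

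From aldolase to pyruvate kinase, the steps that yield ATP and NADH, the differences shared 1 direction but not 1 size. They ranged from 0.36 to 2.67 in LG_eTconv and from 0.24 to 2.65 in LG_eTreg. All 7 genes had a higher mean in both effector subsets than in LG_naive, and for all 7 the arrays did not overlap with LG_naive in either comparison (over all genes, 31.1% did not overlap in LG_eTconv and 27.1% in LG_eTreg). For Aldoc in LG_eTconv this rests on values below background, 1.44 on LG_eTconv 1 against 1.38 on LG_naive 1. The adjusted test called 5 of the 7 higher in each subset (6.45% of all genes in LG_eTconv, 6.2% in LG_eTreg). The median difference of the 7 was 0.67 in LG_eTconv and 0.55 in LG_eTreg.

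Tpi1, which interconverts the triose phosphates, rose in both subsets. Its values were 4.33, 4.29 and 4.21 in LG_naive, 6.57, 6.80 and 7.49 in LG_eTconv and 6.02, 6.24 and 6.62 in LG_eTreg. All 6 effector arrays were more than 1 log2 unit above the 3 LG_naive arrays, and Spl_CD4 (4.47) and Spl_CD8 (3.79) were near the LG_naive level. The rise was 6.38-fold in LG_eTconv (2.67, SE 0.24, adjusted p = 0.000144) and 4.05-fold in LG_eTreg (2.02, SE 0.24, adjusted p = 0.000881). The other probe set of Tpi1 gave 2.69 and 2.14, both called.

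Pgk1, phosphoglycerate kinase, and Gapdh, the triose phosphate dehydrogenase, are abundant enzymes and changed by less. Pgk1 read 8.49, 8.60 and 8.53 in LG_naive, 9.17, 9.23 and 9.23 in LG_eTconv and 8.98, 9.04 and 8.86 in LG_eTreg. The groups did not overlap with LG_naive, and Pgk1 was 1.59-fold higher in LG_eTconv (0.67, SE 0.09, adjusted p = 0.00156) and 1.34-fold higher in LG_eTreg (0.42, SE 0.09, adjusted p = 0.0204). The LG_eTreg call ended without LG_naive 1 (adjusted p = 0.0565), LG_naive 3 (0.0665), LG_eTreg 1 (0.0633) or LG_eTreg 2 (0.0679), with only the 2 groups in the fit (0.0572), and without LG_naive 1, LG_eTconv 1 and LG_eTreg 3 together (0.0725).

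Gapdh read 9.83, 9.75 and 9.69 in LG_naive, 10.20, 10.34 and 10.33 in LG_eTconv and 10.09, 10.15 and 10.48 in LG_eTreg, so all effector arrays were above all LG_naive arrays. It was 1.45-fold higher in LG_eTconv (0.53, SE 0.12, adjusted p = 0.0233) and 1.39-fold higher in LG_eTreg (0.48, SE 0.12, adjusted p = 0.0411). Gapdh also serves as an array control with probe sets at 3 places along its transcript. The 3′, middle and 5′ controls gave 0.41, 0.77 and 0.65 in LG_eTconv and 0.44, 0.87 and 0.84 in LG_eTreg, all above 0. The gap between its 3′ and 5′ controls ranged from 1.987 to 3.515 over the 11 arrays. The LG_eTconv call ended without LG_naive 2 (adjusted p = 0.0673), LG_naive 3 (0.0816), LG_eTconv 2 (0.0789) or LG_eTconv 3 (0.0766). The LG_eTreg call held in 9 of 21 alternative settings and ended without any 1 of the LG_naive arrays (0.0643, 0.107 and 0.128 for arrays 1 to 3), any 1 of the LG_eTconv arrays (0.0548, 0.067 and 0.0657), LG_eTreg 2 (0.0687) or LG_eTreg 3 (0.0931).

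Eno2, the neuron-type enolase, had the widest spread. It read 3.96, 1.20 and 3.48 in LG_naive, with 1.20 not above background, then 5.27, 5.15 and 5.13 in LG_eTconv and 5.91, 5.21 and 5.45 in LG_eTreg. The effector arrays were tightly grouped above all 3 LG_naive arrays, and the spread came from LG_naive. The difference was 2.30 (SE 0.61, 4.94-fold, adjusted p = 0.0413) in LG_eTconv and 2.65 (SE 0.61, 6.26-fold, adjusted p = 0.0261) in LG_eTreg, with 2 of 3 LG_naive arrays above background. In LG_eTconv the call held in 11 of 21 settings and ended without any 1 of the 3 LG_eTconv arrays (0.113, 0.108 and 0.0997 for arrays 1 to 3), any 1 of the 3 LG_eTreg arrays (0.0582, 0.0613 and 0.0564) or LG_naive 3 (0.0576). In LG_eTreg it held in 16 and ended without LG_eTreg 1 (0.0846), LG_eTreg 2 (0.0579) or LG_eTreg 3 (0.0628).

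Each of the aldolases was called in 1 subset by its brightest probe set. Aldoa, the main aldolase of most tissues, read 9.22, 9.11 and 9.15 in LG_naive, 9.55, 9.57 and 9.65 in LG_eTconv and 9.46, 9.27 and 9.47 in LG_eTreg. LG_eTconv was 1.35-fold above LG_naive (0.43, SE 0.10, adjusted p = 0.0184), and LG_eTreg differed by 0.24 (adjusted p = 0.171). Another bright probe set of Aldoa gave 0.45 in LG_eTreg and was called (limma adjusted p = 0.0289). The remaining ones, at 0.29 and 0.43 there, were not. The LG_eTconv call ended without LG_naive 2 (0.0649), LG_naive 3 (0.0597), LG_eTconv 2 (0.0538) or LG_eTconv 3 (0.0673), and without LG_naive 1, LG_eTconv 1 and LG_eTreg 3 together (0.0692). Aldoc, the brain-type isoenzyme, was dim: 1.38, 1.04 and 1.15 in LG_naive, where no array was above background, 1.44, 1.66 and 2.66 in LG_eTconv and 2.61, 3.44 and 2.35 in LG_eTreg. It was at least 2.56-fold higher in LG_eTreg than in LG_naive (fitted difference 1.61, SE 0.36, adjusted p = 0.0233), where the bound sets each LG_naive array at the background limit. This call ended without LG_naive 2 (0.0748), LG_naive 3 (0.0732) or LG_eTreg 2 (0.0647), with the floor at 1.698 (0.153) and with the mean of its probe sets (0.205). Pkm, pyruvate kinase, differed by 0.36 (adjusted p = 0.186) in LG_eTconv and 0.55 (adjusted p = 0.0521) in LG_eTreg.

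**Figure D2:**
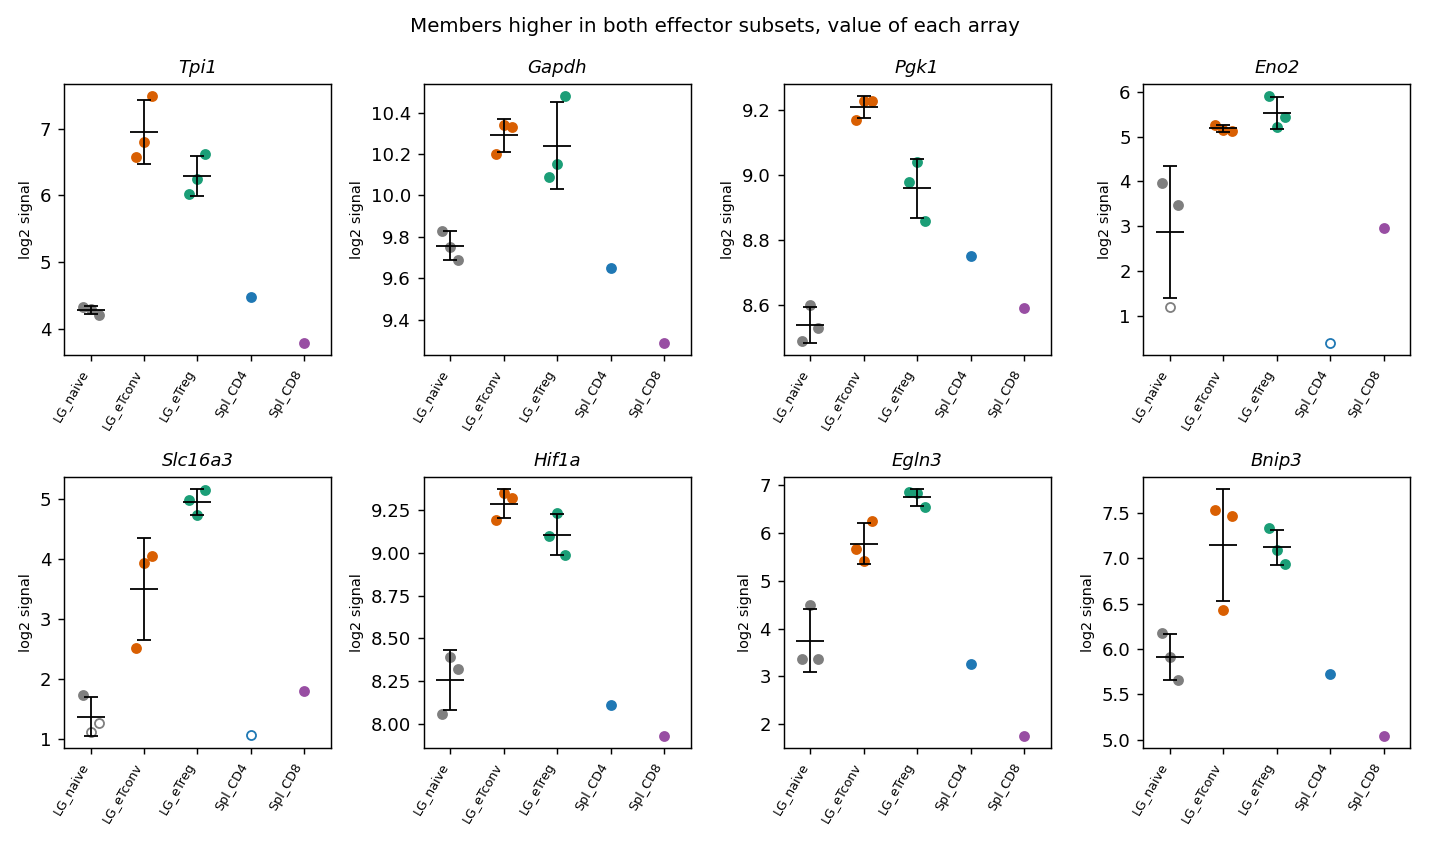
Log2 signal of each array for the 8 genes called higher in both effector subsets, by group; horizontal bars are means and vertical bars SD of 3 arrays, each spleen group is 1 array, and open circles are not above background. Every effector array lies above every LG_naive array in all 8 panels, and the Eno2 and Slc16a3 panels show LG_naive arrays near background.

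At the end of the pathway pyruvate is reduced to lactate and exported, or enters mitochondria. Slc16a3 (MCT4), the exporter typical of highly glycolytic cells, read 1.74, 1.12 and 1.28 in LG_naive, 2.52, 3.93 and 4.06 in LG_eTconv and 4.98, 4.73 and 5.15 in LG_eTreg. The 3 gland groups did not overlap and rose in that order, and only 1 of 3 LG_naive arrays was above background. Spl_CD4 (1.08) and Spl_CD8 (1.81) were at the LG_naive level. The difference was 2.12 (SE 0.38, 4.36-fold, adjusted p = 0.00681) in LG_eTconv and 3.57 (SE 0.38, 11.89-fold, adjusted p = 0.000478) in LG_eTreg. Because 2 of the LG_naive arrays were not above background, these folds depend on values at background. With every value under 1.698, the highest limit of any array, set to 1.698, the differences were 1.79 (adjusted p = 0.0401) and 3.24 (adjusted p = 0.00456). Slc16a1 (MCT1), which carries lactate both ways, differed by 0.08 in LG_eTconv and by -0.74 (SE 0.21, adjusted p = 0.0539) in LG_eTreg.

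The lactate dehydrogenase subunits did not follow the exporter. Ldha differed by 0.11 (95% interval -0.10 to 0.32) in LG_eTconv and 0.08 (-0.13 to 0.29) in LG_eTreg, and Ldhb by 0.57 (adjusted p = 0.186) and 0.32 (adjusted p = 0.512). Pdk1, the kinase that shuts pyruvate out of the mitochondrial dehydrogenase and a known HIF-1 target, fell. It read 5.74, 5.72 and 4.96 in LG_naive, 4.54, 4.67 and 4.86 in LG_eTconv and 3.61, 4.36 and 4.54 in LG_eTreg. All 6 effector arrays were below all LG_naive arrays. The test called the LG_eTreg difference (-1.30, SE 0.28, 2.47-fold lower, adjusted p = 0.0200) and not the LG_eTconv one (-0.79, SE 0.28, adjusted p = 0.121). Both other probe sets of Pdk1 were lower in LG_eTreg too (-1.39 and -1.66, called). In LG_eTconv they gave -0.8, not called, and -1.02, called (limma adjusted p = 0.00333). The mean of the probe sets was called in LG_eTconv as well (adjusted p = 0.0146). The LG_eTreg call ended without LG_naive 1 (0.0631) or LG_naive 2 (0.0701), with the floor (0.0581), with only the 2 groups in the fit (0.0635), and without LG_naive 1, LG_eTconv 1 and LG_eTreg 3 together (0.0787).

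Oxygen sensing was represented by Hif1a, the alpha subunit, and by the prolyl hydroxylases Egln1 (PHD2) and Egln3 (PHD3). Hif1a read 8.06, 8.39 and 8.32 in LG_naive, 9.19, 9.35 and 9.32 in LG_eTconv and 9.10, 9.23 and 8.99 in LG_eTreg. All effector arrays were above all LG_naive arrays, and Hif1a was 2.04-fold higher in LG_eTconv (1.03, SE 0.12, adjusted p = 0.000633) and 1.80-fold higher in LG_eTreg (0.85, SE 0.12, adjusted p = 0.00227). A dimmer probe set of Hif1a gave 3.07 and 1.87, both called. HIF-1 is controlled mainly at the level of its protein, which arrays do not measure.

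Egln3, itself induced by HIF-1, read 3.37, 4.50 and 3.36 in LG_naive, 5.66, 5.41 and 6.25 in LG_eTconv and 6.84, 6.83 and 6.54 in LG_eTreg. The 3 groups did not overlap and, as for Slc16a3, LG_eTreg was the highest. The rise over LG_naive was 4.08-fold in LG_eTconv (2.03, SE 0.33, adjusted p = 0.00407) and 7.95-fold in LG_eTreg (2.99, SE 0.33, adjusted p = 0.000583). The other probe set of Egln3 gave 1.58 and 2.0, both called. The LG_eTconv call ended only without LG_naive 1, LG_eTconv 1 and LG_eTreg 3 together (adjusted p = 0.0568). Egln1, the main oxygen sensor of most cells, differed by 0.42 (SE 0.12, adjusted p = 0.0546) in LG_eTconv and 0.12 (adjusted p = 0.646) in LG_eTreg. Its dimmer probe set went the other way, at -0.63 and -0.43, neither called.

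The other 6 hypoxia response genes did not move together. Bnip3, which marks mitochondria for removal, read 6.17, 5.91 and 5.66 in LG_naive, 7.53, 6.43 and 7.47 in LG_eTconv and 7.33, 7.09 and 6.94 in LG_eTreg. The effector arrays were all above LG_naive, and LG_eTconv 2 was the closest. The difference was 1.23 (SE 0.29, 2.34-fold, adjusted p = 0.0253) and 1.21 (SE 0.29, 2.31-fold, adjusted p = 0.0312). Each call held in 14 of 21 settings. The LG_eTconv call ended without LG_naive 2 (0.0693), LG_naive 3 (0.0906), LG_eTconv 1 (0.0866) or LG_eTconv 3 (0.0872). The LG_eTreg call ended without LG_naive 2 (0.083), LG_naive 3 (0.107), LG_eTreg 1 (0.0984), LG_eTreg 2 (0.0804) or LG_eTreg 3 (0.0529). Its paralog Bnip3l differed by 0.04 and 0.17, Ero1a, an oxidase of the endoplasmic reticulum, by 0.08 and 0.10, and Higd1a, a mitochondrial protein, by 0.32 and 0.36. None of these 3 was called.

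Ddit4 (REDD1), a stress-induced brake on mTORC1, read 7.99, 7.86 and 7.98 in LG_naive, 7.73, 8.14 and 8.33 in LG_eTconv and 8.35, 8.70 and 8.87 in LG_eTreg. Only LG_eTreg stood above LG_naive on every array (0.70, SE 0.18, 1.62-fold, adjusted p = 0.0440), and LG_eTconv differed by 0.12 (adjusted p = 0.769). The call held in 12 of 21 settings and ended without LG_naive 1 (0.0868), LG_naive 2 (0.126), LG_naive 3 (0.105), LG_eTconv 2 (0.071), LG_eTreg 2 (0.122) or LG_eTreg 3 (0.125). Both spleen arrays read Ddit4 above the LG_naive level, at 8.51 and 8.55.

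Vegfa, the classical angiogenic target of HIF-1, went the other way. It read 2.04, 3.08 and 2.22 in LG_naive, 0.75, 0.98 and 0.86 in LG_eTconv and 0.93, 0.93 and 0.55 in LG_eTreg, and only the 3 LG_naive arrays were above background. Vegfa was at least 2.15-fold lower in LG_eTconv (fitted difference -1.58, SE 0.26, adjusted p = 0.00372) and at least 2.34-fold lower in LG_eTreg (-1.65, SE 0.26, adjusted p = 0.00362). These bounds use each array's own limit. Flooring every array at 1.698, the highest limit of any array, ended both calls (adjusted p = 0.149 and 0.162). The other probe set of Vegfa was below background on all 9 gland arrays. The LG_naive signals were thus close to background. Transcripts of other cell types moved with Vegfa. Of 8 measured monocyte, macrophage and dendritic cell markers, 5 were lower in each effector subset (7.02% of all genes in LG_eTconv, 5.47% in LG_eTreg). The mean level of the 8 was 4.36 to 4.81 in LG_naive, 2.94 to 3.19 in LG_eTconv and 3.19 to 3.30 in LG_eTreg. Tyrobp, a signalling adaptor of myeloid cells, lay between 7.81 and 8.33 in LG_naive and between 4.15 and 4.72 in the effector arrays, while Csf1r and Itgam were below background on all 9 gland arrays. Epithelial markers had a mean level of 4.91 to 5.97 in LG_naive, 2.77 to 3.34 in LG_eTconv and 4.09 to 4.31 in LG_eTreg, with 3 of 5 and 2 of 5 called lower (the same shares of all genes apply). Their part in the Vegfa difference, and in the lower Pdk1, was not tested.

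The effector subsets were then compared directly. In LG_eTreg against LG_eTconv 1 of the 32 genes was higher and 2 were lower, 9.4% of the members against 5.7% of all genes tested (2.94% higher, 2.76% lower), and the median difference was -0.03 against 0.01. The arrays of 12 genes did not overlap, with 21.5% of all genes at that state. Hk2 was 3.69-fold lower in LG_eTreg (-1.89, SE 0.23, adjusted p = 0.00190) and Pgm1 2.49-fold lower (-1.31, SE 0.19, adjusted p = 0.00427), while Slc2a3 was 3.67-fold higher (1.88, SE 0.31, adjusted p = 0.00846). For each of the 3, all LG_eTreg arrays were on 1 side of all LG_eTconv arrays and overlapped LG_naive, and the call held in all 21 alternative settings. Markers of other cell types also set these subsets apart. Cd8a, the CD8 alpha chain, read 6.83, 6.47 and 6.16 in LG_eTconv, against 4.51 to 5.19 in LG_naive and 5.13 to 5.23 in LG_eTreg (called against both), although the other chain, Cd8b1, stood at 0.62 to 1.83 on the 9 gland arrays. B cell markers had a mean level of 1.71 to 2.29 in LG_eTreg and 3.03 to 3.38 in LG_eTconv, with none of 3 called and all 3 at an unadjusted p under 0.05, and 2 of 5 epithelial markers were called higher in LG_eTreg. Their part in the differences of Hk2, Pgm1 and Slc2a3 was not tested. The second bright Slc2a3 probe set gave 2.13, also called.

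**Figure D3:**
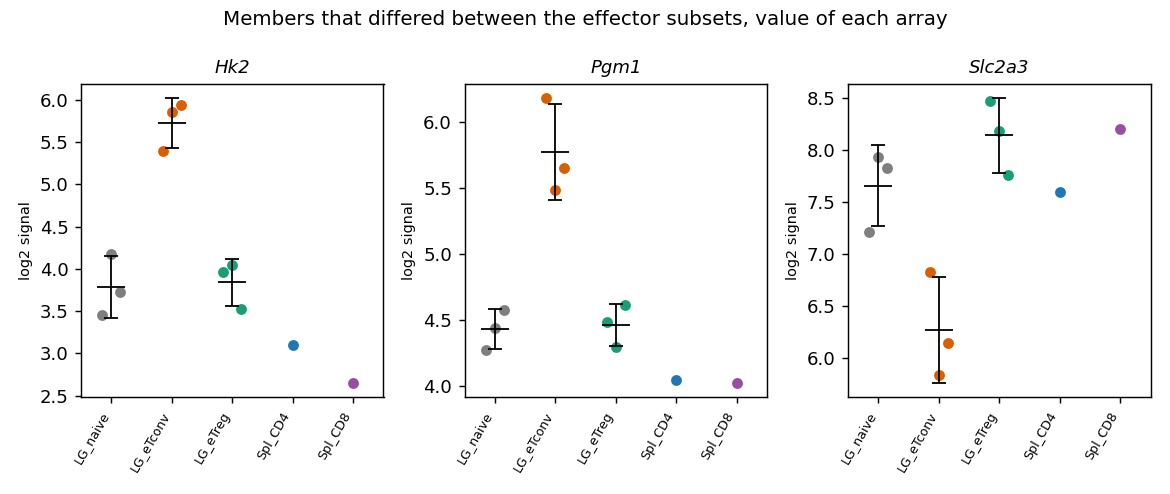
Log2 signal of each array for the 3 genes called between the effector subsets, by group; horizontal bars are means, vertical bars SD of 3 arrays, and each spleen group is 1 array. LG_eTconv stands alone, above the other gland groups for Hk2 and Pgm1 and below them for Slc2a3.

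Slc16a3 differed by 1.45 in favour of LG_eTreg with no overlap (SE 0.38, 95% interval 0.57 to 2.33), but the adjusted p was 0.0747, and only 2 of 21 settings called it. Egln3 likewise differed by 0.96 (SE 0.33, adjusted p = 0.177) without overlap. Slc16a1 differed by -0.83 (SE 0.21, adjusted p = 0.0592), called in 6 of 21 settings. Of the genes higher in both subsets, Tpi1 differed by -0.66 (adjusted p = 0.211), Pgk1 by -0.25 (0.206), Hif1a by -0.18 (0.566), Gapdh by -0.05 (95% interval -0.34 to 0.23), Eno2 by 0.34 (-1.06 to 1.75) and Bnip3 by -0.02 (-0.69 to 0.65). These intervals leave room for changes in either direction for the last 3.

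The 16 genes called in no comparison spanned -0.52 to 0.91 in LG_eTconv, -0.74 to 0.71 in LG_eTreg and -0.83 to 0.64 between the effector subsets. At an unadjusted p under 0.05 they numbered 5, 3 and 2. They include the transporter Slc2a1, all 3 phosphofructokinase genes, Pkm and both lactate dehydrogenase subunits, so several of the best known induced genes of the pathway were not among those called.

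Spleen cells gave a reference from another organ, with 1 array of each kind and so no test. A gene was counted where the mean gland difference was at least 1 log2 unit and all 3 gland arrays lay on the same side of the spleen array. LG_naive exceeded Spl_CD4 for 2 members, Eno2 and Vegfa (4.67% of all genes), and for none was it lower (4.57% of all genes). Both rest on spleen signals below background, 0.40 and 0.79. With every value under its array's limit set to that limit, neither was counted, since Vegfa was then at least 0.88 higher and Eno2 was not above the limit on LG_naive 2. At a difference of 0.5 between deposited values, 6 members were higher and 1, Ddit4, lower.

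The effector subsets stood further away. LG_eTconv exceeded Spl_CD4 for 8 members (6.56% of all genes): Hk2 by 2.63, Tpi1 by 2.48, Pgm1 by 1.73, Hif1a by 1.18, Egln3 by 2.51 and Bnip3 by 1.42, and, against spleen signals below background, Eno2 by at least 3.62 and Slc16a3 by at least 1.94. It was lower for Slc2a3 alone, by a log2 difference of -1.34 (6.62% of all genes lower). LG_eTreg exceeded Spl_CD4 for 7 members (6.44%): Pfkl, Aldoc, Tpi1, Eno2, Slc16a3, Egln3 and Bnip3, and for none was it lower (5.98%). Egln3 stood 3.47 above Spl_CD4, and Slc16a3 at least 3.39 above it. With the limit in place of lower values the same 8 and 7 members were counted.

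**Figure D4:**
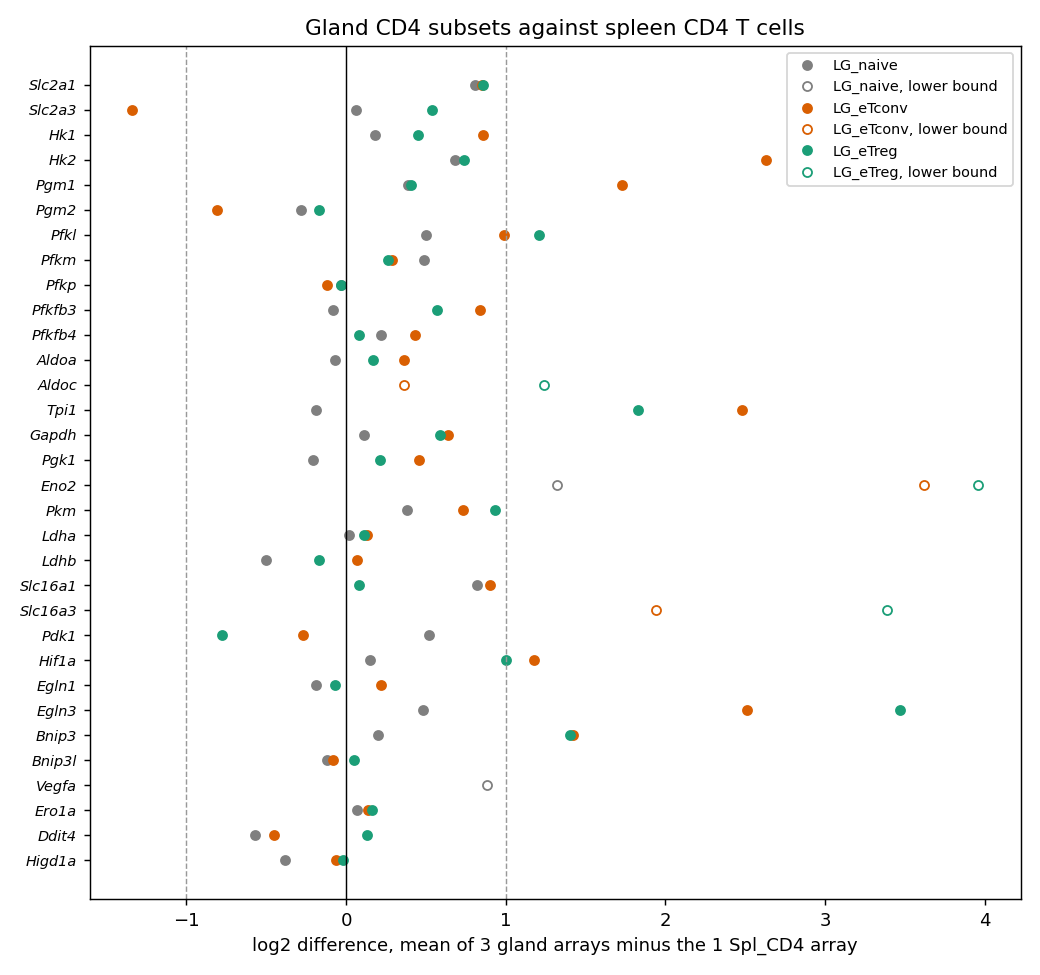
Log2 difference of each gene between the mean of 3 gland arrays and the single Spl_CD4 array, for LG_naive (grey), LG_eTconv (orange) and LG_eTreg (green); dashed lines mark a 2-fold change, and open circles are lower bounds against the background limit where Spl_CD4 was below it (drawn only where a gland array was above background and the bound is over 0). Filled LG_naive points all lie within 2-fold, and the effector points of Tpi1, Slc16a3, Egln3 and Eno2 lie to the right of the dashed line.

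Against Spl_CD8, LG_naive was higher for 6 members (6.11% of all genes), LG_eTconv for 16 (7.67%) and LG_eTreg for 13 (7.69%). Of the members, only Slc2a3 in LG_eTconv was lower. Over all genes 5.43%, 7.76% and 7.06% were lower in LG_naive, LG_eTconv and LG_eTreg. Between the spleen arrays themselves, 23 of the 32 genes read higher in Spl_CD4. At least 2-fold differences were seen for Pfkm (1.49), Ldhb (1.46), Egln1 (1.02) and Egln3 (1.51), which were higher in Spl_CD4 (4.5% of all genes), and for Eno2, which was lower (3.75%): below background in Spl_CD4 and at least 1.41 higher in Spl_CD8. The spleen arrays also differed in cell make-up, since B cell markers had a mean level of 6.45 in Spl_CD4 and 7.16 in Spl_CD8, against 1.71 to 3.73 in the gland.

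Other genes of glycolysis and of the pathways around it were counted in the same fit. Of 20 measured other glycolytic genes, 0 were higher and 1 lower in LG_eTconv (5.0% of the list against 13.5% of all genes), and 2 were higher and 2 lower in LG_eTreg (20.0% against 11.7%). Many of them were dim, with 12 to 16 of the 20 above background on a gland array. Adpgk, an ADP-dependent glucokinase, fell in both (-1.38, SE 0.19, adjusted p = 0.00142, and -1.31, SE 0.19, adjusted p = 0.00226). Slc16a6, another member of the monocarboxylate transporter family, rose in LG_eTreg (2.29, SE 0.45, adjusted p = 0.0121). The medians of the list were -0.27 and -0.16. Among 11 genes of pyruvate entry into mitochondria, 1 was called in each subset (9.1% of the list, against 13.5% and 11.7% of all genes). Pdk3, a pyruvate dehydrogenase kinase, rose in LG_eTconv (0.83, SE 0.18, adjusted p = 0.0186). Pdp1, the opposing phosphatase, rose in LG_eTreg (1.45, SE 0.27, adjusted p = 0.0100). Of 6 pentose phosphate pathway genes, 1 was lower in LG_eTconv (7.02% of all genes). In LG_eTreg 0 of them were called (11.7% of all genes), and 1 had an unadjusted limma p under 0.05.

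Among 13 genes for HIF subunits and their control, 1 was higher and 3 lower in LG_eTconv (30.8% of the list against 13.5% of all genes), and 1 was higher and 2 lower in LG_eTreg (23.1% against 11.7%). Epas1, the HIF-2 alpha subunit, fell in both (-3.94, SE 0.49, adjusted p = 0.000885, and -3.56, SE 0.49, adjusted p = 0.00182), opposite to Hif1a. Myeloid markers, given above with Vegfa, were called lower in each subset for 5 of 8, and fibroblast and endothelial markers for 2 of 4 (7.02% and 5.47% of all genes). Among the latter, Pecam1, an endothelial gene also made by leukocytes, differed by -1.38 and -3.01, and it read 4.9 in Spl_CD4. Their part in the Epas1 difference was not tested. Arnt2, a relative of the HIF partner Arnt, was at least 24-fold higher in LG_eTreg than in LG_naive (fitted difference 5.65, SE 0.36, adjusted p = 2.83e-05). Arnt itself differed by -0.19 and -0.22, and Vhl, which targets hydroxylated HIF for destruction, by 0.29 and 0.26, none of them called.

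Other hypoxia-induced genes, 29 measured, included calls in both directions. In LG_eTconv 5 were higher and 3 lower, 27.6% of the list against 13.5% of all genes, with a list median of -0.01. In LG_eTreg 5 were higher and 2 lower, 24.1% against 11.7% of all genes, with a median of 0.10. Plod2, a collagen lysyl hydroxylase, was at least 3.97-fold higher in LG_eTconv (adjusted p = 0.000217) and at least 1.69-fold higher in LG_eTreg (adjusted p = 0.00898). Rbpj, the transcriptional effector of Notch, rose by 2.16 (SE 0.14, adjusted p = 2.66e-05) and 1.60 (SE 0.14, adjusted p = 0.000169). Ak4, a mitochondrial adenylate kinase, rose in LG_eTconv (2.24, SE 0.56, adjusted p = 0.0324), and Hmox1, heme oxygenase, in LG_eTreg (1.88, SE 0.38, adjusted p = 0.0131). Stc2, a stanniocalcin, fell in LG_eTreg (-1.81, SE 0.26, adjusted p = 0.00265).

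**Figure D5:**
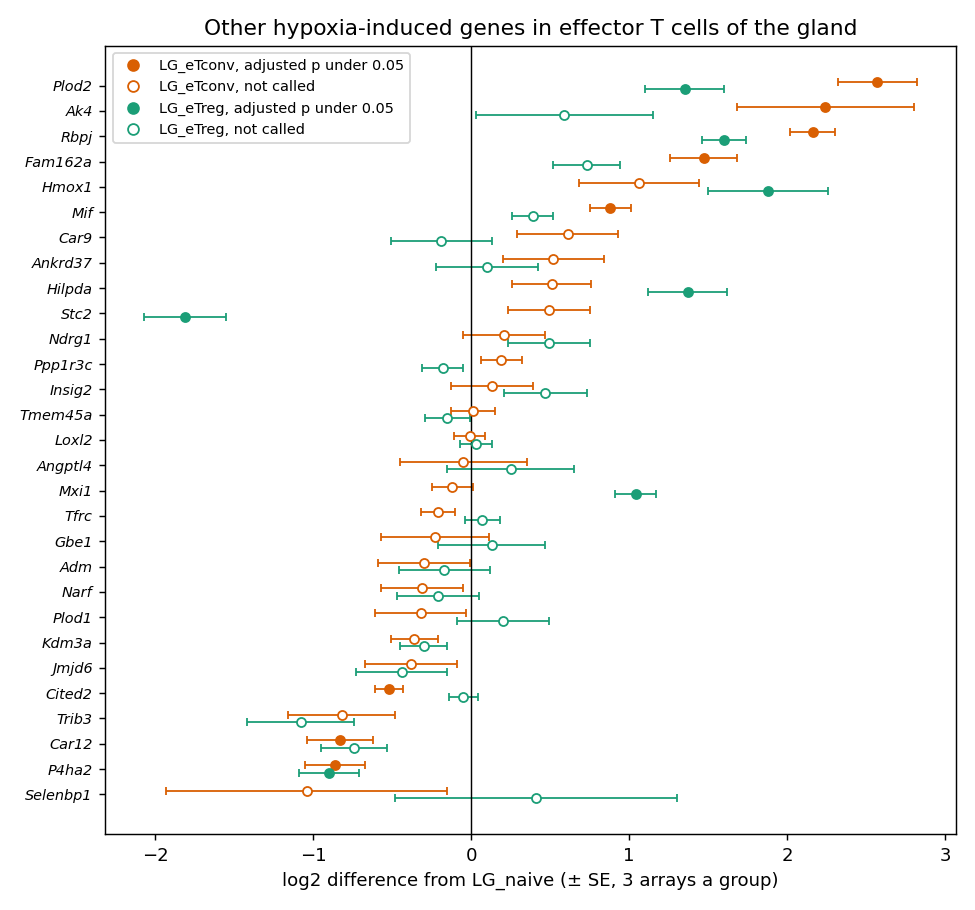
Log2 difference from LG_naive of 29 other hypoxia-induced genes in LG_eTconv (orange) and LG_eTreg (green), ordered by the LG_eTconv difference; bars are SE over 3 arrays a group and filled points passed an adjusted p of 0.05. Filled points lie on both sides of 0 in each subset, and the medians are -0.01 and 0.10.

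Myc and mTOR signalling are known to act on glycolysis in activated T cells. Of 22 Myc and mTOR control genes, 1 was higher and 4 lower in LG_eTconv (22.7% of the list against 13.5% of all genes). In LG_eTreg 0 were higher and 2 lower (9.1% against 11.7% of all genes), and 9 had an unadjusted p under 0.05. Sesn1, a sestrin that restrains mTORC1, fell in both subsets (-2.14, SE 0.14, adjusted p = 2.09e-05, and -0.97, SE 0.14, adjusted p = 0.00217), and Pik3cd, the leukocyte PI3 kinase subunit, also fell in both (-1.48 and -1.27). Txnip, an inhibitor of glucose uptake, fell in LG_eTconv (-1.14, SE 0.21, adjusted p = 0.00854). Myc differed by -0.86 (adjusted p = 0.0521) and -0.68 (adjusted p = 0.130), and Mtor by 0.06 and 0.08. Proliferation genes rose: 8 of 15 were called higher in LG_eTconv (6.45% of all genes) and 11 of 15 in LG_eTreg (6.2%), with medians of 1.59 and 2.35. Their mean level was 2.50 to 2.54 in LG_naive, 3.57 to 4.33 in LG_eTconv, 4.44 to 4.64 in LG_eTreg, 4.02 in Spl_CD4 and 3.53 in Spl_CD8. Proliferation transcripts thus moved in the same direction as the glycolytic genes in the gland, and their part in the result was not tested. On the spleen arrays, 1 of each kind, proliferation genes were above their LG_naive level. Of the members, Hk2 (3.10 and 2.65) was below its LG_naive arrays there, and Tpi1 (4.47 and 3.79) lay on either side of its own. Ddit4 (8.51 and 8.55) and Higd1a (7.83 and 7.8) were above theirs. The spleen arrays also carried more B cell marker signal than the gland arrays, and the relation of proliferation to these values was not tested.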

How the data were processed

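RNA of sorted T cells from 11 samples was amplified, labelled and hybridised to 1-colour mouse expression arrays. Per the submitters' processing notes, the authors made the deposited values with RMA in Partek. The deposited table holds 45141 probe sets on what its values show to be a log2 scale, although the base is not given in the sources used here. Of these, 104 were controls, 28898 had 1 gene symbol, 551 had several and 15588 had none, and no probe set with several was named. The brightest probe set over the 9 gland arrays stood for each of 17097 genes. limma 3.58.1 (R 4.3.3) was fitted with a mean per gland group, no covariate and 6 residual degrees of freedom, with Benjamini-Hochberg adjustment, after the procedure was tested on simulated data. Spleen groups of 1 array were described without a test. Probe sets with probes in related sequences (among them those of Tpi1, Aldoa and Slc2a3) may read pseudogenes or paralogs.

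Every member is accounted for, and those called in at least 1 gland comparison have the value of every array. Of each other list, up to 4 called genes with the largest change were eligible to be named. Arnt, Vhl, Myc, Mtor, Pecam1 and Tyrobp, which lie outside that rule, were chosen after their values were seen. The members and lists were chosen with earlier results of these data known. The number of arrays limits the precision. One RNA sample had a lower integrity number, and the labels do not tie it to a group. Replicate numbers, which the labels do not tie to shared mice, were also tried as a block. Protein sequences of the paralogs were not analysed here.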

Additional observations from a re-analysis of the deposited data

Results flagged for a closer look

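The effect of each effector state against LG_naive differed between LG_eTreg and LG_eTconv for 3 genes, by the direct limma test between the 2 subsets. For Hk2 the LG_eTreg effect minus the LG_eTconv effect was -1.89. For Pgm1 it was -1.31, and for Slc2a3 it was 1.88. All 3 LG_eTreg arrays showed each direction.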

How the results depend on the processing

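No called difference of a member changed sign under the 21 alternative settings, and 13 of the 28 calls (6 of 13, 4 of 12 and 3 of 3 in LG_eTconv and LG_eTreg against LG_naive and between the effectors) held under all of them. Several settings, such as another estimate of the spread or leaving out an array of the third group, cannot change a difference or its sign. Fitting all 11 arrays could change neither the difference nor the call, because groups of 1 array add nothing to the spread. With 13 members called in LG_eTconv against LG_naive, leaving out 1 array gave 8 to 14, with 8 without LG_naive 3 or LG_eTconv 3. With 12 called in LG_eTreg, leaving out 1 array gave 7 to 11 (7 without LG_naive 2, LG_naive 3 or LG_eTreg 2). Flooring all values at 1.698, the highest background limit of any array, gave 7 there. Leaving out LG_naive 1, LG_eTconv 1 and LG_eTreg 3 together gave 6. Between the effectors, where 3 were called, leaving out 1 array gave 3 to 4, and dropping dim genes gave 5 with 10947 genes tested. Against Spl_CD4, LG_naive differed for 2 members, for 7 at a log2 difference of 0.5, and for 0 with values floored at each array's background limit (a setting chosen after seeing the data). With the replicate number as a block, 15, 11 and 4 members were called. Deviations of same-numbered arrays correlated between -0.097 and 0.283, over 0.1 in 3 of 9 pairs, so the numbers were not taken to pair the samples; every LG_eTreg array correlated best with its own number among the LG_eTconv arrays, a hint from the data only. The cause of these shifts was not tested, beyond fewer arrays or genes in the fit. Signal over background limits Aldoc, Eno2, Slc16a3 and Vegfa. The planned comparison of paralog protein sequences was not run.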

Other observations

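Tpi1 and Eno2, which both rose, are close neighbours on mouse chromosome 6 in the order of RefSeq genes, with 2 genes between them, Lrrc23 and Spsb2. This was looked at after the values were seen, and no test of the stretch was made. In LG_eTconv and LG_eTreg, Lrrc23 differed from LG_naive by -1.28 (limma adjusted p = 0.0357) and -0.45, and Spsb2 by 0.02 and -0.22. Of 17 other measured genes within 8 genes on either side of the pair, 5 were called in LG_eTconv (13.5% of all genes) and 3 in LG_eTreg (11.7% of all genes). Lag3, an inhibitory receptor, differed by 3.75 (adjusted p = 2.09e-05) and 4.04 (2.05e-05), Ptms, parathymosin, by 1.53 (0.000195) and 0.86 (0.00565), and Atn1, atrophin, by -1.14 (0.00367) and -1.46 (0.00114). Cd4, in the same stretch, differed by 0.54 (0.00409) in LG_eTconv and -0.00 in LG_eTreg. Neither Lrrc23 nor Spsb2 was thus called higher in either subset, while genes further along moved in both directions. Whether position has a part in the rise of Tpi1 and Eno2 was not tested.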
